A study of Sus scrofa with 26 samples.

Results

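The glutathione S-transferases GSTA4, GSTP1, GSTO1, GSTK1, GSTZ1 and GSTT1 and the microsomal enzymes MGST1, MGST2 and MGST3 were followed in subcutaneous adipose tissue (SCAT) of pigs kept at thermoneutrality (TN) or under heat stress (HS). These 9 genes were read by 33 of the 60305 probes of a porcine array, and 31 of the 33 probes were bright enough to be tested. GSTA4 was chosen because it was the second named gene, by smallest p, when F1 pigs were set against the mean of both parent breeds. AKR1E2 stood just before it in that order, with an F1 minus mid-parent difference of 1.32 on the log2 scale, and CYTB just after it, with 0.60. The breed differences of GSTA4 are therefore given as descriptions, without a test. The other members were taken as further glutathione S-transferases by name, with earlier results of these data known. They are not a full set, since GSTA1 and GSTM3 were measured but are not among them.

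The series held 26 arrays, each hybridised with the RNA of 1 castrated male growing pig from Creole pigs, Large White (LW) pigs or their F1 cross. Thermoneutrality was 24 °C in the labels and heat stress 30 °C in the labels but 32 °C for 5 days in the series text. There were 3 Creole, 4 F1 and 4 LW pigs at TN and 5 pigs of each breed under HS, giving 11 TN and 15 HS arrays. The HS pigs were slaughtered later than the TN pigs, so that temperature, slaughter day and age cannot be told apart. Pigs of a breed included littermates, the labels give no litter or pen, and breed and family cannot be told apart. The labels name a separate animal for each array, and the p-values measure the spread between these animals.

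Glutathione S-transferases join the thiol of glutathione to electrophilic compounds, among them the reactive aldehydes that form when membrane and storage lipids are oxidised. Most are soluble enzymes sorted into classes named by Greek letters, whereas MGST1, MGST2 and MGST3 are small integral membrane proteins of another lineage (MAPEG) that also holds enzymes of leukotriene and prostaglandin synthesis. Fat tissue stores large amounts of oxidisable lipid, and GSTA4 is known there for clearing hydroxynonenal.

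All values below are log2 of quantile-normalised median spot intensity. A level is given for each probe and is not comparable between probes. Differences were tested with limma and adjusted by the Benjamini-Hochberg procedure over all 44703 tested probes, and a probe was called when its adjusted p was below 0.05. Between 68.5% and 76.6% of spots were well above background on each array, no spot was saturated, and arrays of the same group correlated at 0.974 or more. The 7 adipocyte markers, such as ADIPOQ and PLIN1, were well above background on all 26 arrays. Markers of other cells were present too. Of the skin markers, KRT5 was well above background on 19 arrays, DSP on 26 and KRT1 on 0, and their summed level ranged from 6.55 to 14.19 on the log2 scale. The 7 skeletal muscle markers were detected on all 26 arrays, with a summed level from 14.67 to 18.44. In such bulk tissue, fewer cells of a type and less RNA per cell cannot be told apart.

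Outside GSTA4, the main results concerned MGST2, which was about 3-fold lower in LW than in Creole SCAT, and MGST1, for which probes of the same gene gave opposite answers. For HS minus TN, 1 of the 31 probes was higher and 1 lower under HS, or 6.45%, where 12.2% of all probes were called. The median HS minus TN difference over the 31 probes was -0.12, and 23 probes were lower against 8 higher. Probes of a gene are not separate members, and MGST1 gave 8 and MGST3 6 of the lower ones. All tested probes of GSTA4, GSTK1 and GSTT1 were higher. Those of GSTO1, GSTZ1, MGST2 and MGST3 were all lower, and those of GSTP1 and MGST1 were mixed. As an alternative, the scanner software's processed signal, scaled to the 75th percentile of each array, was taken in place of quantile-normalised median intensity. This gave 12 calls (38.7%), 11 of them lower and all from 4 genes, with a median of -0.24. In that setting 14.1% of all probes were called and their median was 0.02. The calls numbered 6 (19.4%) when the slide was a fixed block, where 13.5% of all probes were called, and 2 when it was a random block, where 13.3% were. With a red blood cell marker score in the model they numbered 0, where 2.95% of all probes were called. The share of member probes called was thus below that of all probes in some settings and above it in others. Each panel of the plot of levels by group shows 1 member.

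**Figure D1:**
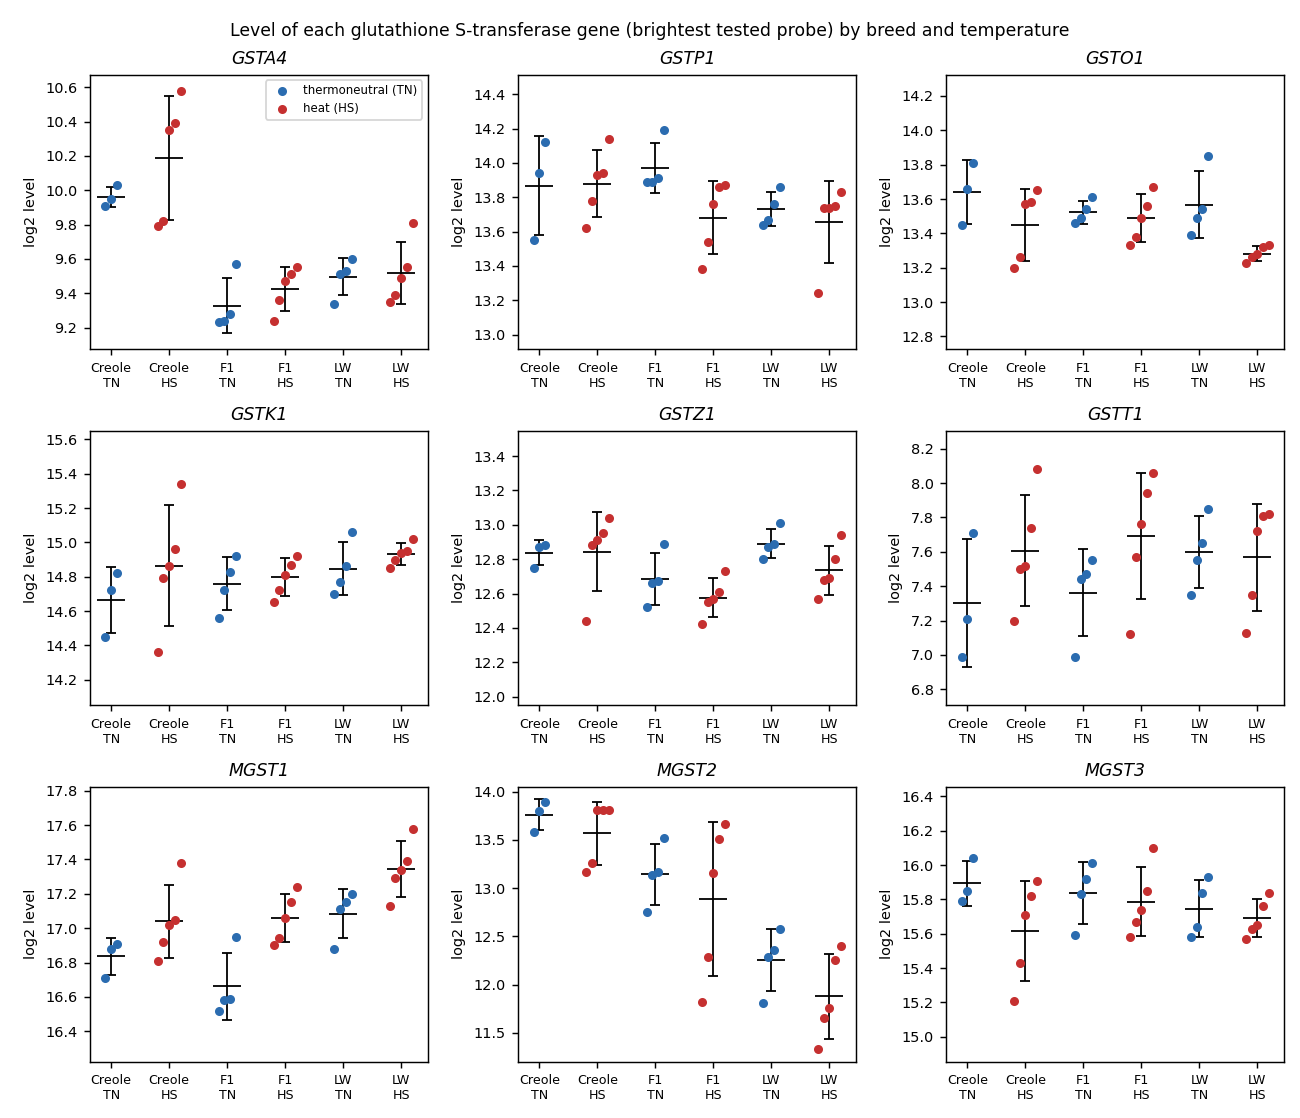
Log2 level of the brightest tested probe of each of the 9 genes on every array (points, blue for TN and red for HS), by breed and temperature; black bars mark the group mean with its SD, and each panel has its own vertical range. All 9 LW arrays lie below all 8 Creole arrays for MGST2, and all 9 F1 arrays lie below all 8 Creole arrays for GSTA4.

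GSTA4, the alpha-class enzyme that conjugates hydroxynonenal, was read by 2 tested probes whose sequences overlap. They are shown because the breed pattern rests on them and because they differ by 1 base within the overlap. Capitals mark the run of T in which A_72_P210752 has 1 base more.
A_72_P605968: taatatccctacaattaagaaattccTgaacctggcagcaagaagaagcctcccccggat
A_72_P210752: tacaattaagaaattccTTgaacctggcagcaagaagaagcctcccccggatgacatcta
Over 52 aligned positions 51 bases were identical, and the levels of the probes correlated at 0.97 over the 26 arrays. The probes read nearly the same stretch and are not separate evidence. The remaining GSTA4 probe, O9968, was well above background on 2 arrays and was not tested.

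The level of GSTA4 by A_72_P210752 was 9.95, 9.91 and 10.03 in the Creole TN pigs, and 10.39, 10.58, 9.82, 9.79 and 10.35 in the Creole HS pigs. In F1 it was 9.28, 9.24, 9.57 and 9.23 at TN, and 9.47, 9.55, 9.51, 9.36 and 9.24 under HS. In LW it was 9.53, 9.51, 9.34 and 9.60 at TN, and 9.55, 9.49, 9.81, 9.35 and 9.39 under HS. The Creole arrays were thus the highest: all 9 F1 arrays lay below all 8 Creole arrays, and 8 of 9 LW arrays did. By A_72_P605968 all 9 F1 and all 9 LW arrays lay below all 8 Creole arrays.

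Averaged by breed, the GSTA4 level by A_72_P605968 was 9.87 ± 0.26 (SD, n = 8) in Creole, whereas LW stood at 9.25 ± 0.19 (SD, n = 9) and F1 at 9.13 ± 0.13 (SD, n = 9). With temperature in the model, by A_72_P210752, LW minus Creole was -0.59, F1 minus Creole -0.71 and F1 minus LW -0.13. F1 minus mid-parent was -0.42 by either probe. On the line from Creole to LW, F1 stood at 122% by A_72_P210752 and at 119% by A_72_P605968, that is, near LW and a little beyond it.

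Since these arrays chose GSTA4, its values by temperature and slide describe them further and support nothing. LW minus Creole was -0.47 at TN and -0.67 under HS, and F1 minus Creole was -0.64 at TN and -0.76 under HS, by A_72_P210752. Within the slides on which the arrays were printed, F1 minus Creole ranged from -1.12 to -0.37, LW minus Creole from -0.88 to -0.35 and F1 minus LW from -0.28 to -0.02. Markers of other cells also differed between the breeds. The endothelial score, the mean deviation of 5 marker genes from their own means, was -0.17 ± 0.20 (SD, n = 8) in Creole and 0.09 ± 0.05 (SD, n = 9) in LW, and the adipocyte score of 7 genes was 0.14 ± 0.13 (SD, n = 8) and -0.10 ± 0.09 (SD, n = 9), with 1 marker of each list called. Over the 26 arrays GSTA4 by A_72_P605968 correlated at -0.60 with the endothelial and 0.48 with the adipocyte score, and at -0.05 with each once group means were removed. With the red blood cell score it correlated at -0.45, and at -0.40 with group means removed. With the fibroblast, T cell and keratinocyte scores it correlated at 0.05, 0.09 and -0.0027, and at 0.43, -0.48 and 0.46 with group means removed. Of the fibroblast markers 3 of 6 were called higher in LW than in Creole. The part of these markers in the GSTA4 levels was not tested. As for the order of the 6 groups, the lowest mean was that of F1 TN (9.33) and the highest that of Creole HS (10.19), while the 4 F1 and LW group means spanned 9.33 to 9.52 with SDs between 0.11 and 0.18 and are not separated from each other.

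Heat stress left GSTA4 without a call. HS minus TN over all breeds was 0.11 (SE 0.08, 95% interval -0.05 to 0.27, adjusted p = 0.400) by A_72_P210752 and 0.12 (adjusted p = 0.336) by A_72_P605968, and 9 of 15 HS arrays stood above the TN mean of their own breed by the first probe. In Creole pigs alone the difference was 0.23 (SE 0.15, adjusted p = 0.600). Of the Creole HS arrays 3 lay at 10.35 to 10.58 and 2 at 9.79 and 9.82, with an SD of 0.36 against 0.06 at TN.

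The patterns most like that of GSTA4 over the 26 arrays, among 10117 named genes with 1 probe each, were those of TRO (Pearson's r = 0.87), RRP36 (0.79), NKAIN3 (0.78), USF1 (0.77) and UBE2E2 (0.75). TRO stood at 5.97 ± 0.34 (SD, n = 8) in Creole, 5.42 ± 0.14 (SD, n = 9) in F1 and 5.39 ± 0.18 (SD, n = 9) in LW. Its probe was well above background on 6 of 8 Creole, 1 of 9 F1 and 1 of 9 LW arrays, so that in F1 and LW its level is mostly background, whereas the probes of the other 4 genes were above it on all 26 arrays. Spearman's rho was 0.71 for TRO, 0.74 for NKAIN3 and 0.75 for UBE2E2 but 0.29 for RRP36. With group means removed, r was 0.67 for TRO, 0.77 for RRP36 and 0.33 for USF1. These are descriptions over arrays that share slides and breeds.

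GSTP1, the pi-class enzyme that is abundant in many tissues, was read by 2 probes that correlated at 0.39. By the brighter one, O8505, the level was 13.87 ± 0.21 (SD, n = 8) in Creole, 13.81 ± 0.23 (SD, n = 9) in F1 and 13.69 ± 0.18 (SD, n = 9) in LW. HS minus TN was -0.12 (SE 0.08, adjusted p = 0.326) by O8505 and 0.15 (SE 0.25, adjusted p = 0.748) by A_72_P227172. LW minus Creole was -0.19 by the first and 0.34 by the second, with adjusted p-values from 0.189 to 0.490. The second probe ranged from 8.05 to 10.08 within F1 alone. The 2 probes gave opposite signs in both comparisons and neither was called. With the processed signal scaled to the 75th percentile, O8505 was called lower in both, by -0.23 for HS minus TN (adjusted p = 0.044) and -0.30 for LW minus Creole (adjusted p = 0.036).

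GSTO1, the omega-class enzyme known for reducing dehydroascorbate, was lower under HS by 1 of its 3 probes. The sequence of the called probe O9147 is shown because it differs from that of the other 2 probes, which share 1 sequence.
O9147: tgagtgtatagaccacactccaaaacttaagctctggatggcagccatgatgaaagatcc
At TN the level by O9147 was 12.27, 12.51 and 12.40 in Creole, 12.34, 12.19, 12.51 and 12.06 in F1, and 12.19, 12.46, 12.05 and 12.34 in LW. Under HS it was 12.35, 12.43, 12.34, 12.04 and 11.77 in Creole, 12.29, 12.00, 12.03, 12.28 and 12.30 in F1, and 11.95, 11.72, 11.92, 11.89 and 11.93 in LW. The groups overlapped in Creole and F1, whereas all 5 LW HS arrays lay below all 4 LW TN arrays.

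HS minus TN for GSTO1 by O9147 was -0.23 (SE 0.07, 95% interval -0.38 to -0.08, adjusted p = 0.039), with 11 of 15 HS arrays below the TN mean of their breed. The difference was below 0 within 5 of 5 slides, from -0.46 to -0.13. The other 2 probes gave -0.17 (adjusted p = 0.071) and -0.14 (adjusted p = 0.111), and both were called lower with the processed signal scaled to the 75th percentile (-0.26 and -0.24, adjusted p = 0.024 and 0.035). The call rests on little margin, since it was lost when 13 of the 26 arrays were left out 1 at a time, without the filter on dim probes (adjusted p = 0.052), without breed in the model (adjusted p = 0.086) and with the red blood cell marker score in it (-0.17, adjusted p = 0.276). That score, the mean deviation of 4 red cell genes from their own means, was 0.18 ± 0.20 (SD, n = 11) at TN and -0.13 ± 0.29 (SD, n = 15) under HS. Over the 26 arrays O9147 correlated at 0.38 with that score, -0.64 with the fibroblast score and -0.61 with the Schwann cell score, as a description, and with group means removed at 0.25, -0.38 and -0.20. Fibroblast and Schwann cell markers were called higher under HS in 4 of 6 and 3 of 5 cases. Their part in the GSTO1 result was not tested.

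GSTK1, a kappa-class enzyme of mitochondria and peroxisomes that is also known for helping adiponectin assemble, did not pass the test in any comparison. Its level by O3831 was 14.79 ± 0.30 (SD, n = 8) in Creole, 14.78 ± 0.12 (SD, n = 9) in F1 and 14.89 ± 0.11 (SD, n = 9) in LW. HS minus TN was 0.10 (95% interval -0.05 to 0.26, adjusted p = 0.395), though 12 of 15 HS arrays stood above the TN mean of their breed. The direction turned with the processed signal scaled to the 75th percentile (-0.0098).

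GSTZ1, the zeta-class enzyme better known as maleylacetoacetate isomerase of tyrosine breakdown, was lower in LW than in Creole by 2 of its 3 probes. By O12931 the level in Creole was 9.08, 9.03 and 9.04 at TN and 9.36, 9.02, 8.82, 9.12 and 8.95 under HS, and in LW it was 8.78, 9.24, 8.89 and 8.88 at TN and 8.82, 8.59, 8.32, 8.70 and 8.89 under HS. The breeds overlapped, since the highest LW array exceeded 7 of the 8 Creole arrays. LW minus Creole was -0.27 (SE 0.09, adjusted p = 0.032) by O12931 and -0.24 (SE 0.08, adjusted p = 0.041) by A_72_P562494, but -0.04 (adjusted p = 0.741) by the brighter A_72_P479037. Both calls were lost with the slide as a fixed block (-0.23 and -0.20) but not with the slide as a random block (adjusted p = 0.034 and 0.043). They were also lost without temperature in the model (adjusted p = 0.069 and 0.085) and without any of 6 and 10 single arrays, respectively, and that of A_72_P562494 without the filter on dim probes (adjusted p = 0.054). Fibroblast markers were called higher in LW in 3 of 6 cases and endothelial markers in 1 of 5. O12931 and A_72_P562494 correlated at -0.51 and -0.59 with the fibroblast score, and at -0.25 and -0.35 with group means removed. With the endothelial score they correlated at -0.41 and -0.43, and at -0.32 and -0.53 with group means removed. The part of these markers in the GSTZ1 difference was not tested. HS minus TN for GSTZ1 lay between -0.16 and -0.09 by the 3 probes, with no call.

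GSTT1, the theta-class enzyme that acts on small halogenated compounds, was dim. Its 2 tested probes share 1 sequence, and the third was well above background on 5 arrays and was not tested. The level by O4053 was 7.49 ± 0.35 (SD, n = 8) in Creole, 7.54 ± 0.35 (SD, n = 9) in F1 and 7.58 ± 0.26 (SD, n = 9) in LW. HS minus TN was 0.20 (SE 0.12, 95% interval -0.05 to 0.44, adjusted p = 0.301), with 11 of 15 HS arrays above the TN mean of their breed.

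**Figure D2:**
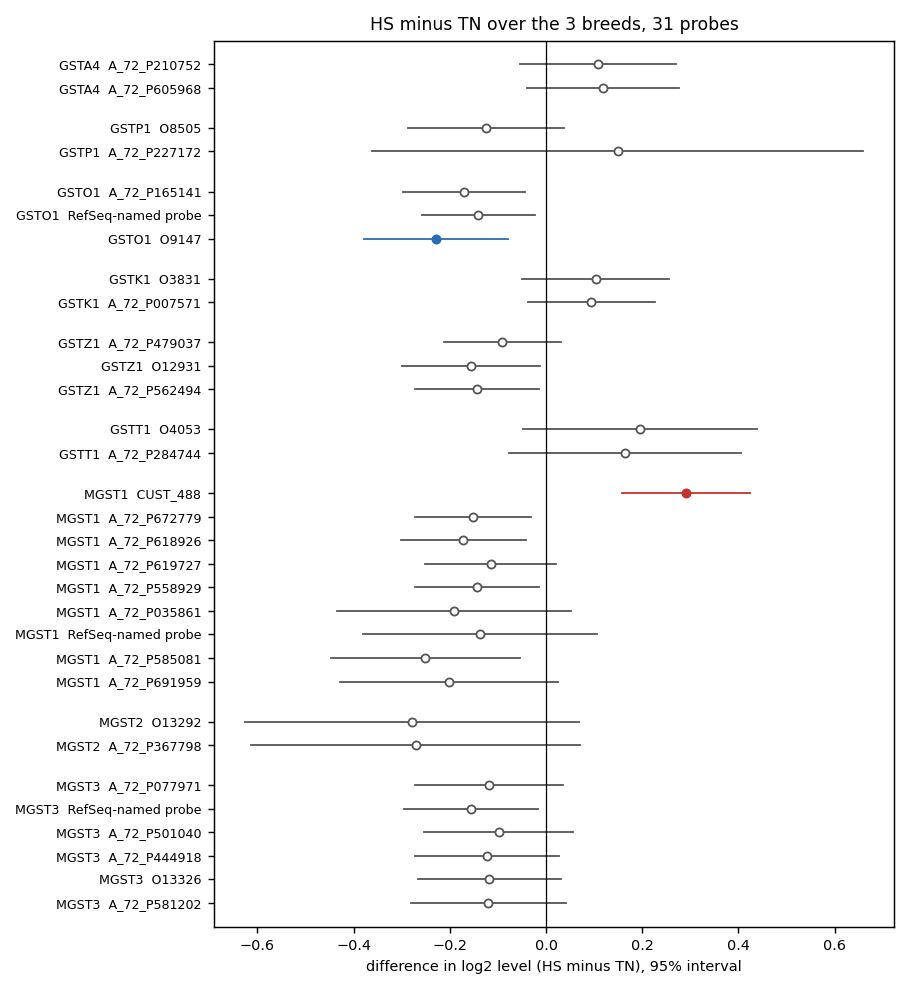
HS minus TN difference in log2 level for the 31 tested probes, grouped by gene, with 95% intervals; filled red and blue points were called higher and lower, open grey points were not called. The MGST1 probe CUST_488_PI427286967 (0.29) and the GSTO1 probe O9147 (-0.23) were called, and the other 8 MGST1 probes lie to the left of 0.

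MGST1, the membrane-bound enzyme of the endoplasmic reticulum and outer mitochondrial membrane, was read by 9 probes with 8 sequences. The brightest, CUST_488_PI427286967, behaved unlike the rest. Its first 30 bases are shown because its values differ from those of the other probes. It shares no run of 18 bases, on either strand, with any other probe of the array, but neither do 3 other MGST1 probes, A_72_P619727, A_72_P585081 and A_72_P691959.
CUST_488_PI427286967: tgaggtagaaaatgagaaacaagctgttgg
Over the 26 arrays its correlation with the other 8 MGST1 probes ran from -0.59 to 0.18 (median -0.39). The 28 pairs among those 8 ran from -0.41 to 0.95 (median 0.82). All low values there involved A_72_P691959 (-0.41 to 0.07), and the pairs without it ran from 0.70 to 0.95. The array design names all 9 probes MGST1, and which of them follow the same transcript was not tested.

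By CUST_488_PI427286967 the level at TN was 16.88, 16.91 and 16.71 in Creole, 16.59, 16.52, 16.58 and 16.95 in F1, and 17.15, 16.88, 17.20 and 17.11 in LW. Under HS it was 16.81, 17.05, 16.92, 17.02 and 17.38 in Creole, 16.90, 17.15, 17.24, 16.94 and 17.06 in F1, and 17.29, 17.58, 17.13, 17.39 and 17.34 in LW. Of the 15 HS arrays, 14 stood above the TN mean of their own breed, and the exception was a Creole array.

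HS minus TN by this MGST1 probe was 0.29 (SE 0.06, 95% interval 0.16 to 0.42, adjusted p = 0.0045), a ratio of 1.22. It was above 0 within 5 of 5 slides, from 0.06 to 0.61. By the other 8 probes the difference lay between -0.25 and -0.12, none called, with adjusted p-values from 0.073 to 0.490. Of these 8 probes, 4 were called lower with the slide as a fixed block and 5 with the processed signal scaled to the 75th percentile. With array weights 2 were. CUST_488_PI427286967 was called higher in each of the 3 settings, in which 13.5%, 14.1% and 14.4% of all probes were called, in that order. The call of CUST_488_PI427286967 held without any single array (adjusted p from 0.0026 to 0.0109) and was lost with the red blood cell score in the model (0.24, adjusted p = 0.079). Schwann cell and fibroblast markers moved the same way: 3 of 5 and 4 of 6 were called higher under HS, and the Schwann cell score was -0.38 ± 0.34 (SD, n = 11) at TN and 0.29 ± 0.35 (SD, n = 15) under HS. The summed Schwann cell level ranged from 12.50 to 13.73 at TN and from 13.11 to 14.35 under HS, and that of the fibroblast markers from 18.26 to 19.59 and from 19.01 to 19.84. As a description, CUST_488_PI427286967 correlated at 0.70 with the Schwann cell, 0.58 with the fibroblast and 0.52 with the hepatocyte score over the 26 arrays. With the red blood cell score it correlated at -0.41. Once group means were removed these were 0.40, 0.10, 0.39 and -0.27. The part of these markers in the MGST1 result was not tested.

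Between breeds, CUST_488_PI427286967 was higher in LW than in Creole by 0.29 (SE 0.08, adjusted p = 0.016) and lower in F1 than in LW by 0.35 on the log2 scale (adjusted p = 0.015). In each of these comparisons 7 of the 9 MGST1 probes went the other way, and the mean of the probes did too, at -0.0582 for LW minus Creole and 0.0470 for F1 minus LW. By CUST_488_PI427286967, F1 stood outside the parental interval at 16.88 ± 0.26 (SD, n = 9), against 16.96 ± 0.20 (SD, n = 8) in Creole and 17.23 ± 0.20 (SD, n = 9) in LW, but F1 minus Creole was -0.06 (95% interval -0.22 to 0.10, adjusted p = 0.866). Within slides, LW minus Creole was above 0 on 3 of 4 slides and F1 minus LW below 0 on 4 of 4, although the F1 minus LW call was lost with the slide as a fixed block (-0.29) and not with the slide as a random block (-0.34, adjusted p = 0.017). Without temperature in the model neither difference was called (LW minus Creole 0.27, adjusted p = 0.103, and F1 minus LW adjusted p = 0.070). Fibroblast markers were called higher in LW than in Creole in 3 of 6 cases and Schwann cell markers in 1 of 5. The part of these markers in the MGST1 breed differences was not tested.

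Another pair of MGST1 probes nearly repeats 1 sequence and split the breeds. A_72_P035861 and A_72_P691959 share 57 of 60 aligned bases, and the first 30 aligned bases are shown with the differing base in capitals.
A_72_P035861: agccgaggaattaaGatagagaaagcctca
A_72_P691959: agccgaggaattaaCatagagaaagcctca
Counted from 1 at the 5′ end of A_72_P035861, with its base first, the substitutions are G15C and C49T, and there is 1 single-base gap besides. LW minus Creole was 0.43 (SE 0.13, adjusted p = 0.031) by A_72_P691959, with 8 of 9 LW arrays above all 8 Creole arrays, but -0.28 (SE 0.14, adjusted p = 0.208) by A_72_P035861. The call of A_72_P691959 was lost without any of 7 single arrays and with the processed signal scaled to the 75th percentile (0.37, adjusted p = 0.069).

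The difference between the 2 probes, A_72_P035861 minus A_72_P691959 on the log2 scale, fell into 2 ranges. On 7 arrays it lay between 0.78 and 1.13 and on 19 arrays between 1.83 and 2.50, with no array in the gap of 0.70 between them. The low range held 0 of 8 Creole, 2 of 9 F1 and 5 of 9 LW arrays, 3 of them TN and 4 HS. Of the 7, 5 were on slide 3, where both F1 and all 3 LW arrays were in the low range and the 1 Creole array was not, and the other 2 were LW arrays on slides 2 and 4. Slide and breed therefore moved together in this division. The probe with the same sequence as A_72_P035861 gave the same division, from 0.60 to 0.76 on the 7 arrays and from 1.58 to 2.10 on the 19. The ranges were seen after the values were known, and what separates them was not tested.

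**Figure D3:**
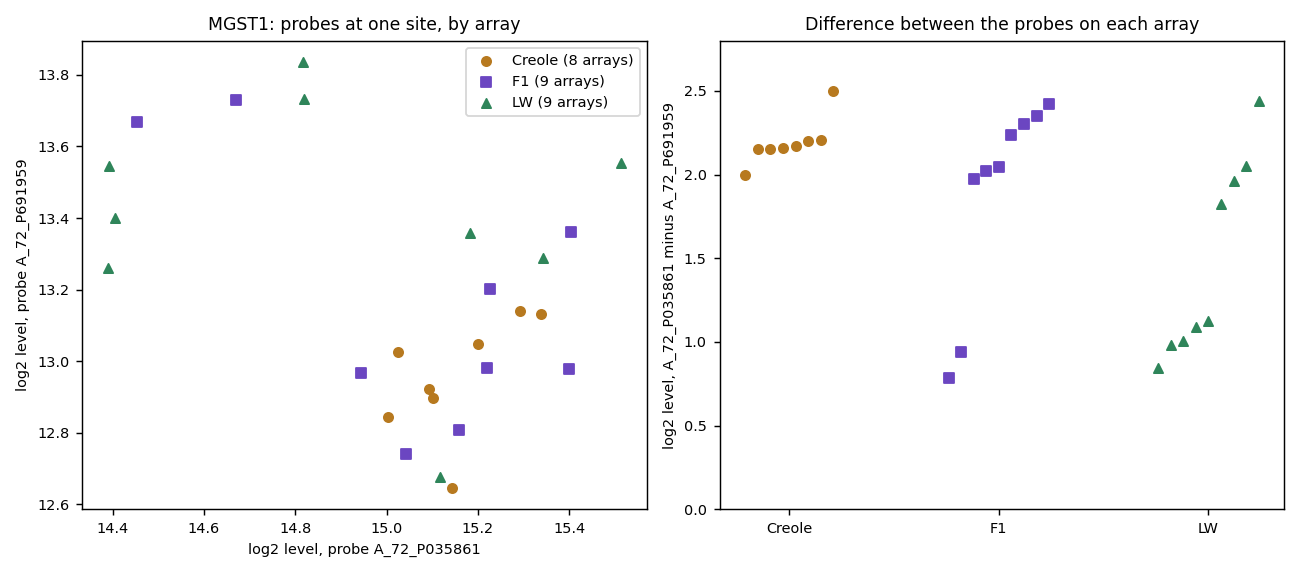
MGST1 levels by 2 probes that differ at 3 of 60 aligned positions: on the left, A_72_P691959 against A_72_P035861 on each of the 26 arrays (log2), and on the right their difference by breed. The difference lies between 1.83 and 2.50 on 19 arrays and between 0.78 and 1.13 on 7, of which 0 are Creole, 2 F1 and 5 LW.

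MGST2, which can make leukotriene C from leukotriene A and reduce lipid hydroperoxides, gave the largest LW minus Creole difference of the tested members. Its 2 probes share no run of 18 bases on either strand. Their first 30 bases are shown because these separate sequences gave the same pattern.
O13292: atatctggacctcaatattgccaagaaact
A_72_P367798: ctgcagaagatgtttctactctgaaggtta
The levels of the 2 probes correlated at 0.99 over the 26 arrays.

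By O13292 the MGST2 level in Creole was 13.58, 13.89 and 13.80 at TN, and 13.81, 13.81, 13.26, 13.81 and 13.17 under HS. In LW it was 11.81, 12.29, 12.58 and 12.36 at TN, and 11.65, 11.76, 11.33, 12.25 and 12.40 under HS. The parent breeds did not overlap, since the highest LW array (12.58) was below the lowest Creole array (13.17). In F1 it was 13.17, 13.14, 13.52 and 12.75 at TN, and 12.29, 11.82, 13.16, 13.67 and 13.51 under HS. The F1 arrays were the most spread, and the HS pigs of F1 reached from the LW range into the Creole range. By A_72_P367798 the levels ran from 12.69 to 13.40 in Creole, from 11.45 to 13.13 in F1 and from 10.83 to 12.11 in LW, again with no overlap between the parent breeds.

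LW minus Creole for MGST2 was -1.62 (SE 0.21, 95% interval -2.04 to -1.19, adjusted p = 5.1e-05) by O13292 and -1.68 (SE 0.20, adjusted p = 2.7e-05) by A_72_P367798, that is, 3.06-fold and 3.20-fold higher in Creole. The difference was below 0 on 4 of 4 slides, from -2.10 to -0.70 by O13292. It was still called when any single array was left out and under each of the 12 processing alternatives tried, from -1.71 to -1.60. Of the 29 member probes with a test in this comparison 6 were called, or 20.7%, where 14.3% of all probes were called. MGST2 gave 2 of the 6, GSTZ1 2 and MGST1 2. With the slide as a fixed block 4 were called, or 13.8%, where 13.5% of all probes were. Adipocyte markers were slightly higher in Creole, with a score of 0.14 ± 0.13 (SD, n = 8) against -0.10 ± 0.09 (SD, n = 9) in LW and 1 of 7 called lower in LW, and 3 of 6 fibroblast markers were called higher in LW. The summed adipocyte level ranged from 19.63 to 19.81 in Creole and from 19.59 to 19.83 in LW, and that of the fibroblast markers from 18.26 to 19.56 and from 19.08 to 19.84. Endothelial markers, with 1 of 5 called higher in LW, had a score of -0.17 ± 0.20 (SD, n = 8) in Creole and 0.09 ± 0.05 (SD, n = 9) in LW, and a summed level from 14.93 to 15.46 and from 15.23 to 15.62. Over the 26 arrays the MGST2 level by O13292 correlated at -0.59 with the endothelial score, 0.50 with the T cell score, 0.51 with the adipocyte score and -0.56 with the fibroblast score, as a description. With group means removed these were -0.56, 0.52, -0.04 and -0.20. Of the 4 T cell markers 0 were called. The part of these markers in the MGST2 difference was not tested.

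F1 pigs lay between the parents for MGST2, at 41% of the way from Creole to LW by O13292 and 39% by A_72_P367798. F1 minus LW was 0.96 (SE 0.20, 95% interval 0.55 to 1.37, adjusted p = 0.013) and 1.02 (SE 0.20, adjusted p = 0.0085), above 0 on 4 of 4 slides. F1 minus Creole was -0.66 (SE 0.21, 95% interval -1.08 to -0.23, adjusted p = 0.205) by O13292 and was not called. F1 minus mid-parent was 0.15 (95% interval -0.21 to 0.51, adjusted p = 0.843). Among the 29 member probes, 3 were called in F1 minus LW, where 4.23% of all probes were called, 0 in F1 minus Creole, where 0.262% were, and 0 in F1 minus mid-parent, where 0.00671%, or 3 probes, were. By limma at an unadjusted p below 0.05, 3885 of all probes passed in F1 minus mid-parent.

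**Figure D4:**
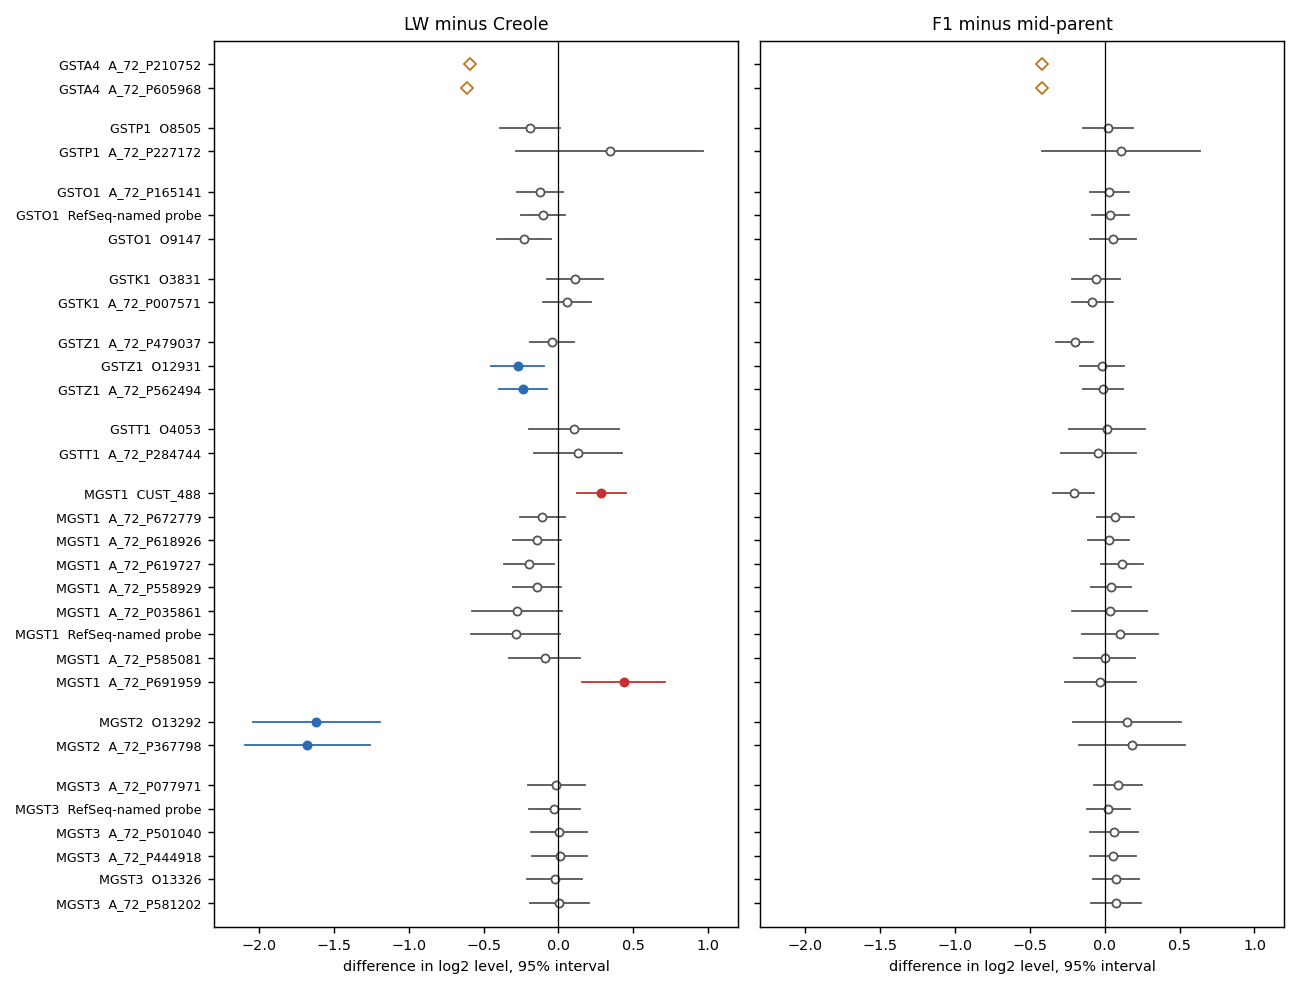
LW minus Creole (left) and F1 minus mid-parent (right) differences in log2 level for the 31 probes; filled points were called, open grey points were not, lines are their 95% intervals, and amber diamonds are the GSTA4 probes, which chose the family and have neither a test nor an interval. MGST2 lies at -1.62 and -1.68 on the left and near 0.15 on the right, and GSTA4 at about -0.6 and -0.42.

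At each temperature taken alone, the MGST2 difference kept its size. LW minus Creole at TN was -1.50 by both probes, called by A_72_P367798 (adjusted p = 0.048) and just missed by O13292 (adjusted p = 0.051), and 0.313% of all probes were called. Under HS it was -1.69 (SE 0.28, adjusted p = 0.0022) by O13292 and -1.80 (SE 0.27, adjusted p = 0.0011) by A_72_P367798, and that of GSTZ1 was -0.39 by O12931 (adjusted p = 0.036), where 5.65% of all probes were called. Heat itself gave no MGST2 call: HS minus TN was -0.28 (SE 0.17, 95% interval -0.63 to 0.07, adjusted p = 0.300) by O13292, and 8 of 15 HS arrays were below the TN mean of their breed.

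MGST3, the third microsomal enzyme, known for peroxidase activity, showed little difference between breeds. By A_72_P077971 its level was 15.72 ± 0.27 (SD, n = 8) in Creole, 15.81 ± 0.18 (SD, n = 9) in F1 and 15.72 ± 0.13 (SD, n = 9) in LW. LW minus Creole lay between -0.03 and 0.01 by its 6 probes, with 95% intervals that together reach from -0.21 to 0.20. HS minus TN was between -0.16 and -0.10 by all 6, which hold 4 sequences, and none was called. With the processed signal scaled to the 75th percentile 2 of the 6, which share 1 sequence, were called lower (-0.27 by either, adjusted p = 0.036 and 0.034).

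Within single breeds, no member probe was called for HS minus TN. In Creole pigs 0.0537% of all probes were called, in F1 0.421% and in LW 1.52%, and at an unadjusted p below 0.05 limma gave 4973, 7126 and 7482 probes. The smallest adjusted p of a member was 0.064, for MGST1 by A_72_P585081 in LW (-0.54, SE 0.15). By CUST_488_PI427286967, HS minus TN was 0.20 (SE 0.12, adjusted p = 0.553) in Creole, 0.40 (SE 0.11, adjusted p = 0.092) in F1 and 0.26 (SE 0.11, adjusted p = 0.224) in LW. The test of the difference between breeds, the breed by temperature interaction, called no member probe (smallest adjusted p = 0.897), 1 of all probes or 0.00224%, and 2337 at an unadjusted p below 0.05.

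The family was set beside 65 further genes of glutathione and aldehyde metabolism, of which 48 were measured. For HS minus TN 10 of the 48 were called lower and 0 higher, with a median of -0.11, whereas 12.6% of the genes taken with 1 probe each were called in either direction. All 3 genes that regenerate glutathione or supply its NADPH were lower. PGD, which makes NADPH in the pentose phosphate pathway, went from 15.53 ± 0.16 (SD, n = 11) at TN to 15.06 ± 0.34 (SD, n = 15) under HS (-0.49, SE 0.09, adjusted p = 0.00096). GSR, glutathione reductase, changed by -0.29 (SE 0.07, adjusted p = 0.0077). NQO1, a quinone reductase and NRF2 target, fell from 9.58 ± 0.30 (SD, n = 11) to 8.71 ± 0.22 (SD, n = 15), by -0.86 (SE 0.10, adjusted p = 2.6e-05). Both glyoxalase genes and 3 of 6 other aldehyde-handling genes were called lower too. In these lists, calls at adjusted p = 0.049 and 0.046 each rested on 1 of 11 tested probes of the gene. The pathway calls were not taken through the processing alternatives. None of the 4 synthesis genes, 7 glutathione peroxidases, 4 glutaredoxins or 12 genes of glutathione breakdown and export was called. In the same comparison 4 of 6 fibroblast and 3 of 5 Schwann cell markers were called higher, and 1 of 4 red blood cell markers lower. The red blood cell score in the model left 2.95% of all probes called, and the pathway genes were not looked at in that setting. The part of these markers in the pathway differences was not tested.

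For LW minus Creole 9 of the 48 pathway genes were called lower and 1 higher, where 15.3% of genes with 1 probe each were called in either direction. OPLAH, the oxoprolinase that returns glutamate to glutathione synthesis, was at 9.44 ± 0.33 (SD, n = 8) in Creole and 8.45 ± 0.24 (SD, n = 9) in LW (-0.99, SE 0.14, adjusted p = 0.00018). ABCC3, an exporter of glutathione conjugates and other organic anions, differed by -0.43 (SE 0.08, adjusted p = 0.00085) and HAGH, the glyoxalase that releases glutathione from lactoylglutathione, by -0.35 (SE 0.07, adjusted p = 0.0013). PTGES, the MAPEG enzyme that makes prostaglandin E, was higher in LW by 0.28 (SE 0.08, adjusted p = 0.022). GSTA1 and GSTM3, the only other glutathione transferases of the list that were measured, were not called, with LW minus Creole of 0.24 and -0.23. GSTA1 was dim, at 5.67 in Creole and 5.91 in LW, so that its lack of a call says little. Cell markers that differed between LW and Creole are given with MGST2, and their part in the pathway differences was not tested. For F1 minus mid-parent 0 of 48 were called, as were 0 of all 10126 genes with 1 probe each.

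**Figure D5:**
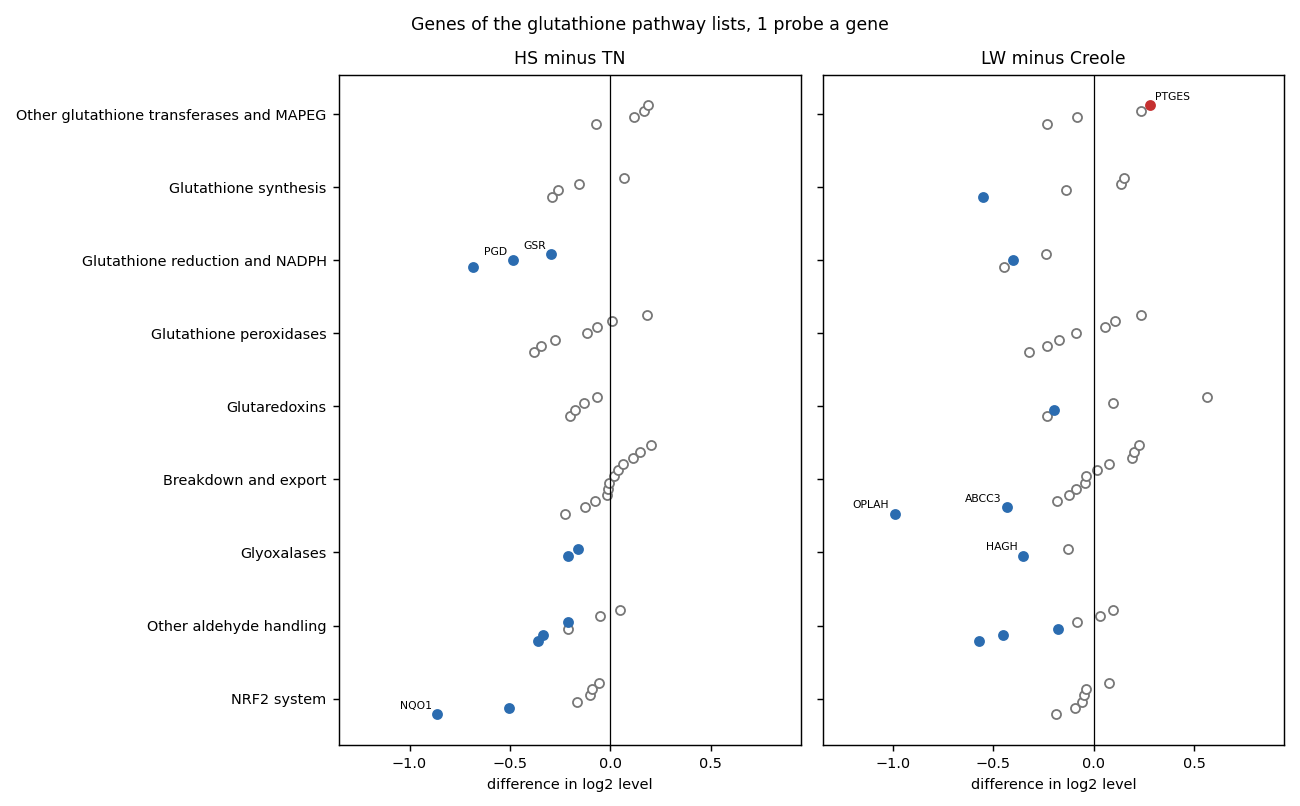
Differences in log2 level of the 48 measured pathway genes, 1 probe each, by list, for HS minus TN and for LW minus Creole; filled points were called. Under HS every called gene lies below 0, with NQO1 at -0.86, and in LW minus Creole OPLAH lies lowest at -0.99.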

How the data were processed

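Total RNA of 26 SCAT samples was hybridised, 1 animal per array, to 1-colour (Cy3) Agilent 60-base porcine arrays. The authors extracted spot intensities with Feature Extraction 10.10.1.1 using default settings, and deposited the scanner files, with pixel-median intensity per spot, and a table of quantile-normalised log2 values, which was used here as an alternative. The values of that table follow the scanner values, and no other processing of it is stated in the sources used here.

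From the deposited median intensity (no background subtracted), control spots were removed, arrays were quantile-normalised, log2 was taken, nonuniform spots were left out and repeat spots of a probe were averaged. The test covered the 44703 of 60305 probes that exceeded background clearly on 8 or more arrays. limma 3.58.1 in R 4.3.3 fitted breed and temperature (lmFit, eBayes with intensity trend), and within-breed and interaction contrasts came from a model of the 6 groups. P-values were adjusted over all kept probes at a threshold of 0.05. The pen, slaughter, father and mother effects of the authors' model are not in the labels and were not used here. The code was tested on simulated data. Precision is limited by the number of arrays.

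Members were named by the gene name column (26 probes), accession (3) or description (4). The members and all gene lists were chosen with earlier results of these data known. All 9 members are named with all their probes, and each is represented by its brightest tested probe. From the pathway lists the text names at most the 3 genes with the smallest p in each direction among those called. It also names GSTA1 and GSTM3, which were not called, as the other measured glutathione transferases. As genes like GSTA4 it names the 5 with the highest correlation. The cell type lists were adipocyte, fibroblast, endothelial, macrophage, T cell, B cell, skeletal muscle, red blood cell, keratinocyte, Schwann cell and hepatocyte markers. No genome coordinates were used. Alternatives covered background correction, the processed signal scaled to the 75th percentile, the filter on dim probes, the slide as a fixed or a random block, array weights, the other factor left out, a red blood cell covariate, the deposited log2 table, the mean of a gene's probes and each array left out.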

Additional observations from a re-analysis of the deposited data

Results flagged for a closer look

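In groups of 4 or 5 animals, 7 of 80 sets of values for 16 probes held an array far from the others by Dixon's ratio, the gap to the nearest array over the range of the group, and chance marks about 1 in 20. For GSTA4, F1 TN replicate 3 was the highest of its group by A_72_P210752 (9.57, next 9.28, ratio 0.871) and by A_72_P605968 (9.33, next 9.03, ratio 0.921). For GSTP1 by O8505, F1 TN replicate 2 was the highest (14.19, next 13.91, ratio 0.919) and LW HS replicate 3 the lowest (13.24, next 13.74, ratio 0.849). For GSTZ1 by A_72_P479037, Creole HS replicate 3 was the lowest (12.44, next 12.88, ratio 0.731). For MGST1 by CUST_488_PI427286967, F1 TN replicate 4 was the highest (16.95, next 16.59, ratio 0.836). For GSTO1 by O9147, LW HS replicate 2 was the lowest (11.72, next 11.89, ratio 0.754).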

How the results depend on the processing

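The number of arrays and the disagreement between probes of a gene limit these results, and the causes of the shifts below were not tested. The 75th percentile setting below changed both the input, from median intensity to the processed signal, and the scaling. No paired analysis was possible because the labels number no replicates that could match animals across groups. For HS minus TN, member calls went from 2 to 12 in the 75th percentile setting, where 14.1% of all probes were called. They numbered 1 without the filter on dim probes (7.57% of all probes), 6 with the slide as a fixed block (13.5%) and 4 with array weights (14.4%). Without breed in the model 1 was called (7.9% of all probes) and with the red blood cell score 0 (2.95%). Calls over all probes went from 5452 to 3531 without breed and 1320 with that score. In LW alone, MGST1 by A_72_P585081 was called lower in the 75th percentile setting (-0.67, adjusted p = 0.025). The share of all probes called there was not counted. Without temperature in the model, LW minus Creole gave 3 member calls instead of 6 and 4188 calls over all probes instead of 6403. With the slide as a fixed block it gave 4 member calls and 6018 over all probes. F1 minus mid-parent gave 0 calls over all probes with the slide as a fixed block, 43 with array weights and 5 with the red blood cell score, instead of 3. Signs turned for GSTK1 in HS minus TN in the 75th percentile setting (-0.0098), for MGST3 in LW minus Creole with the slide as a fixed block (0.0045), and with the mean of a gene's probes for GSTP1 (HS minus TN 0.0122, LW minus Creole 0.0745) and MGST1 (HS minus TN -0.12, LW minus Creole -0.0582, F1 minus mid-parent 0.0179, F1 minus LW 0.0470). With the slide as a random block the main counts of member calls did not change. Leaving out each of the 26 arrays gave 1 to 4 member calls in HS minus TN (3970 to 6565 over all probes) and 3 to 7 in LW minus Creole (4825 to 8189 over all probes). In F1 minus mid-parent it gave 0 (3 to 51 over all probes, 51 without Creole TN replicate 2). In F1 and in LW alone it gave 0 to 1, and in Creole alone and in the interaction 0, with calls over all probes not counted. The 3 calls in LW minus Creole came without Creole HS replicate 1, LW HS replicate 3 or LW TN replicate 1. MGST3 in LW minus Creole ranged from -0.0794 to 0.0264 and turned sign without 5 of the 26 arrays. MGST1 by CUST_488_PI427286967 in HS minus TN (0.27 to 0.32) and MGST2 by O13292 in LW minus Creole (-1.68 to -1.53) were called in all 26. GSTO1 by O9147 (-0.26 to -0.20) was lost without any of 13 arrays: Creole TN replicates 2 and 3, Creole HS 4, F1 TN 1 and 3, F1 HS 2 and 3, LW TN 1, 2 and 4, and LW HS 2, 3 and 4. GSTZ1 by O12931 was lost in LW minus Creole without Creole HS 1 or 4, LW HS 2, 3 or 4 or LW TN 1, GSTZ1 by A_72_P562494 without Creole HS 1, 2 or 4, Creole TN 2 or 3, LW HS 2 or 3 or LW TN 1, 3 or 4, and MGST1 by A_72_P691959 without Creole HS 1 or 2, Creole TN 2, LW HS 3 or 4 or LW TN 1 or 2. Of 1096 tested values of single probes over all alternatives, 1029 kept direction and side of the threshold, 52 lost a call, 5 gained one and 13 changed sign, 3 of which also lost a call.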

Other observations

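One probe of an expressed sequence tag, not a member by name, shares a run of 49 bases with the GSTA4 probe A_72_P210752 and was chosen after its values were seen. Its level was 10.01 ± 0.27 (SD, n = 8) in Creole, 9.08 ± 0.20 (SD, n = 9) in F1 and 9.30 ± 0.18 (SD, n = 9) in LW, and it correlated with GSTA4 at 0.97 over the 26 arrays. A probe named for a GSTA4-like neighbour was well above background on 3 of the 26 arrays. The GSTP1 probe A_72_P227172 had an SD of 0.89 over 9 F1 arrays, while the brighter GSTP1 probe O8505 had an SD of 0.23 over the same arrays.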
